A study of Mus musculus with 4 samples.

Results

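The expression of 8 genes of the MHC class II pathway was followed through the cell types of transplanted mammary tumours: H2-Aa, H2-Ab1, H2-Eb1, Cd74, Ciita, H2-DMa, H2-DMb1 and H2-Oa. They were taken by symbol from the 31053 mouse genes of the count matrices. H605 cells, a mouse mammary tumour line with HER2, were grown for 14 days as orthotopic grafts in FVB/NJ hosts aged 6 to 8 weeks. There were 2 tumours from wild type (WT) hosts and 2 from hosts without Il1a, the gene of interleukin 1α (Il1a-/-), in a series about interleukin 1α of the host and the tumour's monocytes and macrophages. The transplanted line was the same in all hosts, so the deletion was in host cells only. Each of the 4 tumours was 1 sample, and p-values measure the spread between these tumours. Single-cell 3' libraries gave counts of unique molecular identifiers (UMIs, each standing for 1 captured transcript) per cell.

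MHC class II molecules are heterodimers on the surface of antigen-presenting cells that show peptides to CD4 T cells. H2-Aa encodes the alpha chain and H2-Ab1 the beta chain of the I-A molecule, H2-Eb1 the beta chain of I-E, and Cd74 the invariant chain, which guides the dimer to endosomes and fills its groove until a peptide is loaded. H2-DMa and H2-DMb1 encode chains of the loading catalyst H2-DM, and H2-Oa encodes a chain of its inhibitor H2-O. Ciita encodes the transactivator of class II genes, made constitutively in dendritic and B cells and after interferon gamma in many other cells.

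In GRCm38 (GENCODE vM21) 6 of the members lie in the H2 region of chromosome 17: H2-Oa from 34092340 to 34095234, H2-DMa from 34119541 to 34139101, H2-DMb1 from 34153072 to 34160230, H2-Ab1 from 34257689 to 34269419, H2-Aa from 34282744 to 34287823 on the minus strand and H2-Eb1 from 34305867 to 34316674. Ciita lies on chromosome 16 from 10480059 to 10528418 and Cd74 on chromosome 18 from 60803848 to 60812652. The reference follows the C57BL/6J genome, which carries haplotype b of the H2 region, while FVB/NJ mice carry haplotype q. How differences between these haplotypes affect which reads were counted was not tested, so levels are compared between cells for a gene and not ranked between genes.

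Cells were assigned to classes by marker genes, none of them a member, and each class name stands for cells like that type by those markers alone. Of 14555 cells, 155 were gated as conventional dendritic (cDC), 473 as plasmacytoid dendritic (pDC), 1722 as mononuclear phagocytes, 54 as B cells, 1153 as fibroblasts, 625 as tumour epithelial cells and 9166 as T or natural killer cells (T/NK). Among the leading genes were Ccl22 and Xcr1 in cDC, Siglech and Ccr9 in pDC, Lyz2 and C1qa in phagocytes, and Epcam and Krt18 in tumour cells. These were markers of their own gates, so the gate itself set their lead. Of genes outside the markers, Cst3 led in cDC, Ly6d in pDC, Retnla in phagocytes and Lcn2 in tumour cells. The B gate was led by Igkc, Igha and Jchain, genes of antibody-secreting cells, beside its markers Cd79a and Ms4a1. Libraries held 23464120 and 29001333 UMIs in the WT tumours against 6705368 and 15298532 in the Il1a-/- tumours, so both knockout libraries were shallower. T/NK cells served as the background class, since mouse T cells express little class II. The profile of free RNA from empty droplets (at most 100 UMIs) is given beside it. For H2-Oa and H2-DMa the T/NK level relative to Cd74 was higher than in free RNA. For these genes it is a comparison level only, and its source was not tested. Levels are CPM, the UMIs of a gene scaled to the summed UMIs of its class, and values are listed in the order WT replicate 1, WT replicate 2, Il1a-/- replicate 1 and Il1a-/- replicate 2.

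cDC and phagocytes carried the highest levels of the classical chains and the invariant chain, B cells and pDC came next, and fibroblasts lay at or below the T/NK background. Cd74 stood at 13023, 14849, 13019 and 14199 CPM in cDC, and at 14509, 13066, 10766 and 9591 CPM in phagocytes. In pDC it was 4905, 5395, 4008 and 5233 CPM, and in B cells 9471, 8757, 5894 and 4221 CPM. The cDC and phagocyte ranges overlapped, and both lay above all B and pDC values. In T/NK cells Cd74 was 177, 194, 123 and 178 CPM, which is below the free RNA of the same libraries (1907, 3727, 1542 and 2042 CPM).

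H2-Aa, the I-A alpha chain, followed the same order, with 4647, 4915, 6779 and 6758 CPM in cDC and 5567, 4777, 5428 and 4601 CPM in phagocytes. It stood at 1348, 1169, 1693 and 1609 CPM in pDC and to 45.9, 57.5, 65.5 and 79.1 CPM in T/NK cells. Its partner H2-Ab1 stood at 6278, 7745, 8258 and 7543 CPM in cDC and at 7270.5, 6942, 6709 and 5326 CPM in phagocytes. For both chains the dendritic and phagocyte ranges overlapped, while every pDC value lay below every value of those 2 classes. H2-Eb1, the I-E beta chain, was between 77.3 and 185 CPM in cDC, between 100.5 and 137 CPM in phagocytes and between 19.5 and 47.7 CPM in pDC, so every pDC value again lay below those of the other 2 classes.

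**Figure D1:**
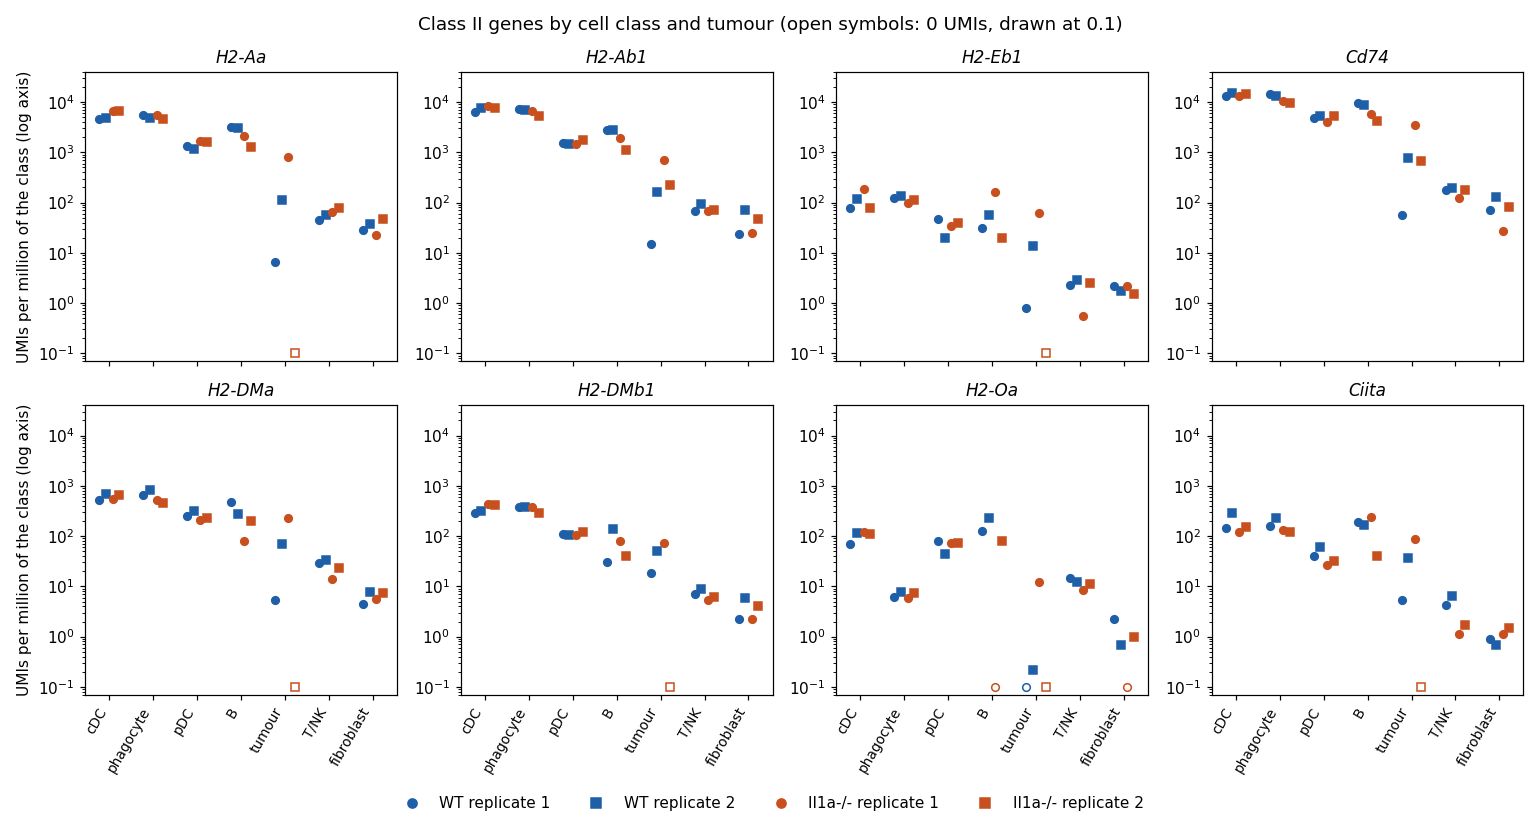
CPM of each cell class (vertical log axis) for the 8 members in 7 cell classes (horizontal axis); each point is 1 tumour, coloured by host genotype and shaped by replicate, and open symbols mark 0 UMIs. Cd74 lies at 9591 to 14849 CPM in cDC and phagocytes and at 123 to 194 CPM in T/NK cells. On the log axis of Cd74 the tumour cells of the 4 libraries are spread more widely than the other classes shown. The tumour-cell point of Il1a-/- replicate 2 rests on 3 cells.

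Most single cells of the presenting classes held class II UMIs. Cells were thinned to 1000 UMIs each so that depth did not differ, and cells with fewer UMIs were left out. This kept 2200 of 2247, 2276 of 2333, 1637 of 2266 and 2226 of 2320 T/NK cells. Of phagocytes it kept 373 of 426, 592 of 722, 133 of 168 and 360 of 406. Thinned values thus describe the deeper cells, and the effect of this selection was not tested. In the cells kept, the UMIs of H2-Aa, H2-Ab1, H2-Eb1 and Cd74 were added up. The median cDC held 23, 26, 29 and 23 such UMIs, the median phagocyte 22, 21, 25 and 16, and the median pDC 7, 8, 6.5 and 8.5. Median B cells held 16 and 15 in the WT tumours, against 11 and 16 in the knockout tumours, where only 3 and 9 B cells were deep enough. Phagocytes were the most spread class in WT replicate 1: 16.4% of them held none of these UMIs, while the 90th percentile was 52. Before thinning, 89.4%, 94.3%, 91.7% and 95.8% of phagocytes had at least 1 such UMI, against 21.1%, 34.1%, 6.9% and 13.4% of T/NK cells. These T/NK shares had the same order as the depths of the libraries. After thinning, both WT shares of T/NK cells still lay above both knockout shares. Both knockout libraries were shallower, and the part of depth in the unthinned shares was not tested.

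**Figure D2:**
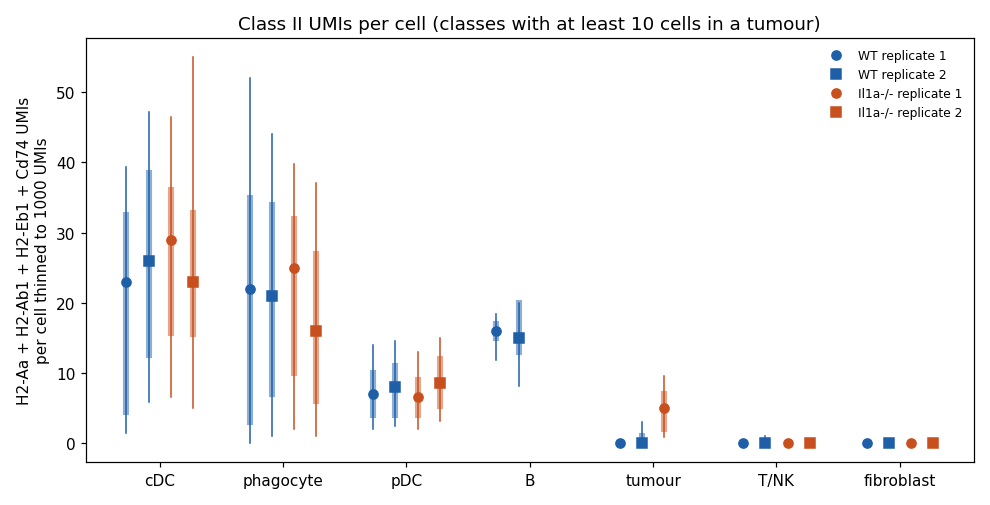
Summed UMIs of H2-Aa, H2-Ab1, H2-Eb1 and Cd74 per cell after thinning to 1000 UMIs (vertical axis) by cell class and tumour; symbols are medians, thick bars run from the 25th to the 75th percentile of cells and thin lines run from the 10th to the 90th percentile. Medians lie at 16 to 29 in cDC and phagocytes, at 6.5 to 8.5 in pDC and at 0 in T/NK cells and fibroblasts.

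The loading catalyst followed the chains it serves. H2-DMa was 524, 680.4, 539 and 651 CPM in cDC and 672, 845, 528 and 452 CPM in phagocytes, with overlapping ranges. In pDC it was 255, 322, 214 and 233 CPM, below every cDC and phagocyte value. H2-DMb1 was 292, 316, 431 and 423 CPM in cDC and 374, 378, 373 and 294 CPM in phagocytes, against 109, 106, 103 and 122 CPM in pDC. H2-DMb2, a neighbouring and closely similar gene whose reads may be shared with H2-DMb1, had a different balance: 127, 148, 108 and 139 CPM in cDC against 8.76, 17.96, 22.9 and 9.21 CPM in pDC.

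H2-Oa did not share this pattern. It was 70.3, 114, 123 and 112 CPM in cDC and 80.8, 44.9, 72.6 and 71.4 CPM in pDC, but only 6.06, 7.66, 5.74 and 7.35 CPM in phagocytes. The phagocyte values lay below those of T/NK cells (14.8, 12.0, 8.40 and 11.03 CPM), although phagocytes held 53.9 to 87.4 times the Cd74 level of T/NK cells. In free RNA H2-Oa averaged 10.0 CPM in the WT and 10.1 CPM in the knockout libraries. For each 1000 Cd74 UMIs, T/NK cells held 61.7 to 84.0 H2-Oa UMIs and free RNA 2.75 to 7.85. For H2-DMa the same ratio was 111 to 176 against 44.5 to 70.4, while the ranges of Ciita and H2-DMb1 overlapped. B cells held 4, 8, 0 and 4 H2-Oa UMIs, or 125 and 225 CPM in the WT tumours and 0 and 78.9 CPM in the knockout tumours. H2-Ob, the other chain of H2-O, was 73.8, 81.2, 154 and 55.8 CPM in cDC and between 59.2 and 281 CPM in B cells. In pDC H2-Ob was at 0 in both WT tumours and at 3.82 and 2.30 CPM in the knockout tumours, so pDC held the alpha chain transcript of H2-O almost without that of its beta chain.

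**Figure D3:**
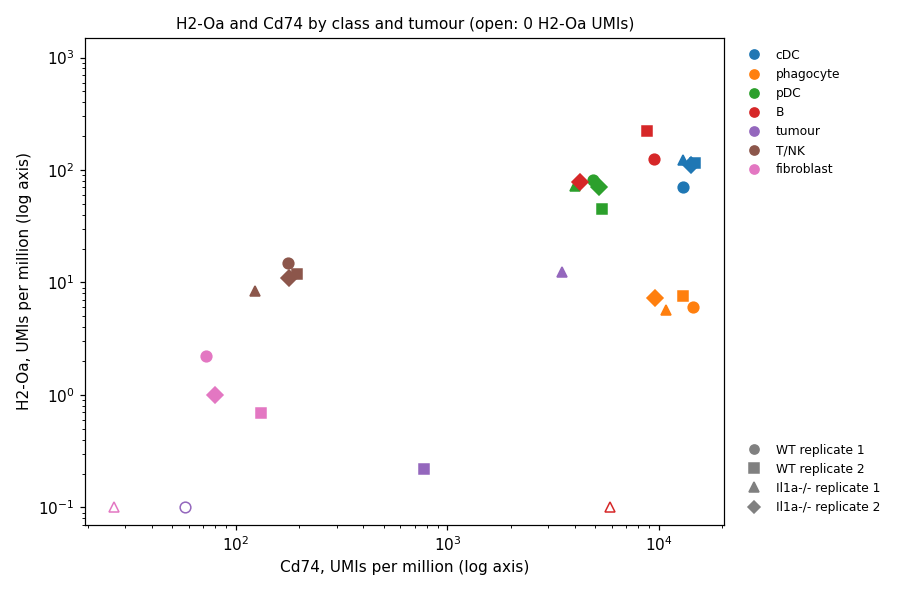
H2-Oa against Cd74 in CPM (both log axes); colours are cell classes with at least 10 cells in a tumour, shapes are tumours, and open symbols mark 0 H2-Oa UMIs. The 4 phagocyte points sit at 9591 to 14509 CPM of Cd74 but 5.74 to 7.66 CPM of H2-Oa, under the cDC points at 70.3 to 123 CPM of H2-Oa.

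Ciita, the transactivator, was read at low depth, with pDC again below cDC and phagocytes. It was 148, 293, 123 and 149 CPM in cDC, 162, 231, 135 and 119 CPM in phagocytes and 39.9, 61.4, 26.7 and 32.2 CPM in pDC. In B cells Ciita was 188, 168, 239 and 39.4 CPM from 6, 6, 3 and 2 UMIs, so it lay above cDC and phagocytes in both first replicates. In T/NK cells it was 4.16, 6.41, 1.12 and 1.72 CPM.

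Classes were compared in 1 edgeR quasi-likelihood fit over the summed counts of the 5 classes with at least 20 cells in every tumour, with the tumour as a block, and p-values were adjusted over 10660 genes. cDC exceeded pDC for 8 of 8 members, where 15.3% of all genes were called higher; the log2 difference was 2.42 ± 0.20 (SE) for H2-Ab1 (adjusted p = 9.06e-09), 1.67 ± 0.19 for Cd74 (adjusted p = 1.05e-06) and 2.33 ± 0.23 for Ciita (adjusted p = 1.14e-07). H2-Oa differed least there, by 0.79 ± 0.26 (adjusted p = 0.0270), and lost its call without WT replicate 2 (0.42, adjusted p = 0.400) or without Il1a-/- replicate 2 (0.70, adjusted p = 0.140). Between cDC and phagocytes only H2-Oa passed the test, 3.89 ± 0.30 higher in cDC (adjusted p = 4.64e-09; 8.26% of genes were called higher). No member was lower in cDC, where 12.4% of genes were. The other 7 members differed by -0.20 to 0.22 in log2 units, with standard errors of 0.16 to 0.25. H2-Ob also exceeded its phagocyte level in cDC, by 3.40 ± 0.40 (adjusted p = 2.03e-06).

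Against the T/NK background, phagocytes were higher for 7 of 8 members (28.6% of genes called higher), from 4.75 ± 0.18 for H2-DMa to 6.56 ± 0.24 for H2-Ab1. H2-Oa was the exception at -0.65 ± 0.27 (adjusted p = 0.0468), lower in phagocytes in 4 of 4 tumours. That call was lost in 6 of the 8 alternative settings tried, with adjusted p from 0.0421 to 0.217. pDC exceeded T/NK cells for 8 of 8 members (19.6% of genes), from 2.46 ± 0.23 for H2-Oa to 4.82 ± 0.22 for Cd74. H2-Ob did not pass between pDC and T/NK cells (adjusted p = 0.718). The summed level of the 15 phagocyte markers was 10619 to 18515 CPM in phagocytes, 697 to 1726 CPM in cDC, 1292 to 1746 CPM in pDC and 169 to 189 CPM in T/NK cells. For each phagocyte-marker UMI, T/NK cells held 1.36 to 2.05 UMIs of H2-Aa, H2-Ab1, H2-Eb1 and Cd74 and phagocytes 1.48 to 2.04, against 4.11 to 6.71 in pDC and 16.4 to 41.0 in cDC. The gates of the other classes limit the phagocyte markers a cell may hold, so these ratios are partly set by the gates. The part of phagocyte RNA in these values was not tested.

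Fibroblast class II levels were at or below the T/NK background, apart from H2-Eb1 in Il1a-/- replicate 1 (2 UMIs). Cd74 was 71.9, 131, 26.6 and 80.0 CPM there and H2-Aa 28.2, 36.7, 22.2 and 47.0 CPM, below the T/NK value in each tumour. Their Ciita rested on 2, 2, 1 and 3 UMIs. Of the 8 members 6 were lower in fibroblasts than in T/NK cells (32.6% of genes called lower), with Cd74 at -0.88 ± 0.20 (adjusted p = 0.000605) and H2-DMa at -1.73 ± 0.22 (adjusted p = 4.10e-07), and H2-DMb1 and H2-Eb1 did not pass. The calls of H2-Aa (adjusted p up to 0.0674, with DESeq2), H2-Ab1 (up to 0.113, with DESeq2, and lost without WT replicate 1, 0.0772, or Il1a-/- replicate 1, 0.0957) and Ciita (0.154 without WT replicate 2) did not hold in every alternative, while H2-DMb1 passed in 3 of them, among them without WT replicate 2 (0.0237). No member was higher in fibroblasts (34.9% of genes were). Phagocytes exceeded fibroblasts for 8 of 8 members (26.8% of genes, while 30.9% were lower), by 7.14 ± 0.25 for Cd74.

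The members that move together across classes were examined for shared promoter letters, using RefSeq promoters (GRCm38.p6) from 250 bases before to 50 bases after a gene's start. H2-Aa, H2-Eb1, H2-DMa, H2-DMb1 and H2-Oa had an entry, and H2-Ab1 and Ciita had none. Class II promoters are known for an X box, bound by RFX, followed at a fixed distance by a Y box, an inverted CCAAT bound by NF-Y, on which the Ciita protein docks. The windows below run 5′ to 3′ on the gene's strand and are shown because H2-Oa, which parts from the other members in phagocytes, carries the same pair of letters as H2-Aa and H2-Eb1; capitals mark GNAAC and TGATTGG.
H2-Aa, chr17:34287867-34287924, minus strand: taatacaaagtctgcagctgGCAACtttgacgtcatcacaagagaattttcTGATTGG
H2-Eb1, chr17:34305756-34305812, plus strand: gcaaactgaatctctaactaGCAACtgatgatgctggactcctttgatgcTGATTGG
H2-Oa, chr17:34092283-34092340, plus strand: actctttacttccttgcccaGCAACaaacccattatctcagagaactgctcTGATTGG
In these the first motif began at position -81 from the start of H2-Aa, -91 of H2-Eb1 and -76 of H2-Oa, and 26, 25 and 26 bases separated it from the second. H2-DMb1 held the pair at -94 with a gap of 26 bases, upstream of its RefSeq start, and neither of the 2 H2-DMa entries held it. Outside the members, H2-Ob held it with a gap of 23 bases and H2-Eb2 with 25, and H2-DMb2 did not hold it. The motifs were chosen after the sequences had been seen, and were searched on both strands with gaps of 20 to 32 bases; 115 of 32851 promoter entries (0.350%) held the pair, and 7.82% held TGATTGG. A match describes letters in the reference, not a bound site.

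On a log scale of Cd74, tumour epithelial cells differed more between tumours than the other classes shown. The number of cells per tumour was too uneven for a test (363, 233, 26 and 3 cells). In WT replicate 1 Cd74 was 57.7 CPM (95% Poisson interval 51.2 to 64.8), below the T/NK level of that library. In WT replicate 2 it was 774 CPM (749 to 800.1), above the 194 CPM of T/NK cells, and in Il1a-/- replicate 1 it was 3499.6 CPM (3218 to 3799), 28.4 times the T/NK level. Ciita stood in the same order, at 5.43 (27 UMIs), 36.6 and 86.0 CPM, and lay above its T/NK level in each of those 3 tumours. For each 1000 Cd74 UMIs the order was the opposite, with 94.1, 47.3 and 24.6 Ciita UMIs. After thinning to 1000 UMIs, 5.38% of 316 tumour cells in WT replicate 1, 37.4% of 206 in WT replicate 2 and 88.0% of 25 in Il1a-/- replicate 1 held a UMI of H2-Aa, H2-Ab1, H2-Eb1 or Cd74, against 9.95%, 12.5% and 5.13% of T/NK cells. In Il1a-/- replicate 1 the median tumour cell held 5 such UMIs, below the pDC median of 6.5. The knockout tumours gave 26 and 3 tumour cells, so genotype and tumour cannot be told apart.

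Values that bear on phagocyte RNA in these tumour cells were taken. The 15 phagocyte markers summed to 22.3, 47.5 and 61.4 CPM in the tumour cells of WT replicate 1, WT replicate 2 and Il1a-/- replicate 1, less than in T/NK cells (171, 169 and 188 CPM). In Il1a-/- replicate 1 Csf1r, Lyz2, C1qb and C1qc were at 0, 4 of 15 phagocyte markers were detected with 10 UMIs, and the 4 class II genes held 822 UMIs. For each phagocyte-marker UMI the tumour cells held 82.2 class II UMIs there and 22.4 in WT replicate 2, against 1.48 to 2.04 in phagocytes. The tumour gate asked for an excess of 2 epithelial markers over those of any other class, which by itself favours cells with few phagocyte markers, and the part of phagocyte RNA in these values was not tested. Cd74 was 69.3% to 72.9% of the UMIs of the 4 genes in the tumour cells of these 3 tumours, 39.9% to 48.9% in free RNA, 46.8% to 52.8% in phagocytes, 48.1% to 60.2% in T/NK cells, 58.7% to 63.5% in B cells and 55.9% to 67.1% in pDC. H2-DMb1 and Ciita parted from Cd74 in WT replicate 1, where both exceeded their T/NK levels and Cd74 did not. H2-DMb1 was 18.3 CPM (91 UMIs) there, against 6.98 CPM in T/NK cells. It stood at 51.4 and 73.7 CPM in the tumour cells of WT replicate 2 and Il1a-/- replicate 1.

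The question of the study was what loss of host interleukin 1α changes, and the host genotype was checked on Il1a first. In phagocytes Il1a was 29.8 and 21.7 CPM in the WT tumours and 2.87 and 0 CPM in the knockout tumours, lower in both knockout tumours as labelled (log2 difference -5.47 ± 0.83, adjusted p = 0.0552).

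Phagocytes showed no member past the genotype test, and summed levels and shares of cells differed in opposite directions. The fit (edgeR, 2 against 2 tumours, 9129 genes) called 0 of 8 members, 0.175% of all genes being called and 1275 genes reaching an unadjusted p under 0.05, 2 of them members. H2-DMa differed by -0.61 ± 0.23 (adjusted p = 0.300), Ciita by -0.61 ± 0.25 (adjusted p = 0.336) and Cd74 by -0.41 ± 0.24 (adjusted p = 0.489). Both knockout tumours lay below both WT tumours for 6 of 8 members, where this held for 27.6% of all genes (47.7% did not overlap in either direction); for H2-DMb1 the nearest values were 373 and 374 CPM. H2-Aa was at -0.02 ± 0.23 (adjusted p = 0.991), with overlapping groups. The share of phagocytes with a UMI of H2-Aa, H2-Ab1, H2-Eb1 or Cd74, after thinning to 1000 UMIs, was higher in both knockout tumours, at 83.6% and 90.9% in WT against 94.0% and 92.5% (difference 5.98 percentage points, exact two-sided permutation p = 0.33, the smallest possible).

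The make-up of the phagocyte gate differed between the genotypes. Cells with more C1q than Ly6c2, Chil3 and Plac8 markers were 58.0% and 60.4% of WT phagocytes and 25.6% and 33.5% of knockout phagocytes, and cells of the Ly6c2 monocyte kind were 27.5%, 30.2%, 57.7% and 51.7%. In the C1q cells the summed level of H2-Aa, H2-Ab1, H2-Eb1 and Cd74 was 33771, 28942, 28933 and 26910.1 CPM, and in the Ly6c2 cells 10356, 17431, 19017 and 13901 CPM. The C1q cells were higher in each tumour. Within the C1q cells Cd74 was 17889 and 14904 CPM in WT against 12726 and 12256 CPM in knockout tumours, and Ciita 188 and 226 against 141 and 127 CPM. H2-Aa in those cells was 6826 and 5819.9 CPM in WT against 6985 and 6984.5 CPM in knockout tumours. In the Ly6c2 cells the genotypes overlapped for Cd74, at 5706 and 9593 against 9472 and 7470.4 CPM. How far the make-up of the gate accounts for the class values was not tested.

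In cDC, with 20 to 68 cells a tumour, 0 of 8 members and 0 of 3348 genes passed (266 at an unadjusted p under 0.05, 0 with DESeq2). H2-Aa was higher in both knockout tumours by 0.52 ± 0.24 (adjusted p = 0.629), as was H2-DMb1 by 0.51 ± 0.25 (adjusted p = 0.656), and groups did not overlap for 39.4% of genes. Cd74 was at -0.01 ± 0.25. Among the Xcr1 and Clec9a subset (cDC1), with 8 to 24 cells, H2-Aa was 6284, 5511, 7269.9 and 7501 CPM. The 9 and 4 cells sorted by Ccr7, Ccl22, Fscn1 and Cacnb3 in the first replicates carried little class II (3171 and 5044 CPM for the 4 genes), unlike the 15 and 5 in the second replicates (28769.8 and 25763 CPM).

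In pDC, 0 of 8 members passed, with 1.77% of genes called. H2-Aa was again higher in both knockout tumours, by 0.42 ± 0.20 (adjusted p = 0.333), while Ciita (-0.68 ± 0.38, adjusted p = 0.439) and H2-DMa (-0.33 ± 0.21, adjusted p = 0.514) were lower in both. The groups did not overlap for 3 of 8 members, against 45.7% of all genes. Cd74 was at -0.12 ± 0.24, with overlapping groups. In fibroblasts 4 of 8 members had enough counts, and none passed (0 of 10077 genes, 495 at an unadjusted p under 0.05, 15 called with DESeq2). The groups overlapped for all 4, while 36.8% of genes did not overlap and 19.8% were below WT in both knockout tumours.

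In T/NK cells, where class II is near background, 0 of 8 members passed, with 4.85% of genes called. Ciita was at -1.77 ± 0.42 (adjusted p = 0.0556), H2-DMa at -0.70 ± 0.25 (adjusted p = 0.143) and H2-Aa at 0.53 ± 0.18 (adjusted p = 0.132). The groups did not overlap for 5 of 8 members, against 57% of all genes, 33% being below WT in both knockout tumours. Ciita rested on 34, 77, 4 and 15 UMIs in 2247 to 2333 cells a tumour. Without Il1a-/- replicate 2, Ciita (-2.23, edgeR adjusted p = 0.0281) and H2-DMa (-1.18, edgeR adjusted p = 0.00420) passed. Without the low-count filter Ciita (edgeR adjusted p = 0.000481), H2-DMa (0.00812) and H2-Aa (0.0472) passed, and these 3 also passed when the replicate was blocked. Of the tumours, leaving out WT replicate 1 turned the 543 called genes into 39, leaving out WT replicate 2 gave 69, and leaving out Il1a-/- replicate 2 gave 1201. The free RNA level of Cd74 was lowest in Il1a-/- replicate 1 (1542 CPM) and highest in WT replicate 2 (3727 CPM), and its part in these values was not tested. At 1000 UMIs, 9.95% and 12.5% of WT T/NK cells and 5.13% and 5.53% of knockout T/NK cells held a UMI of the 4 genes, a gap that an exact two-sided permutation test over 6 assignments cannot place below p = 0.33.

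**Figure D4:**
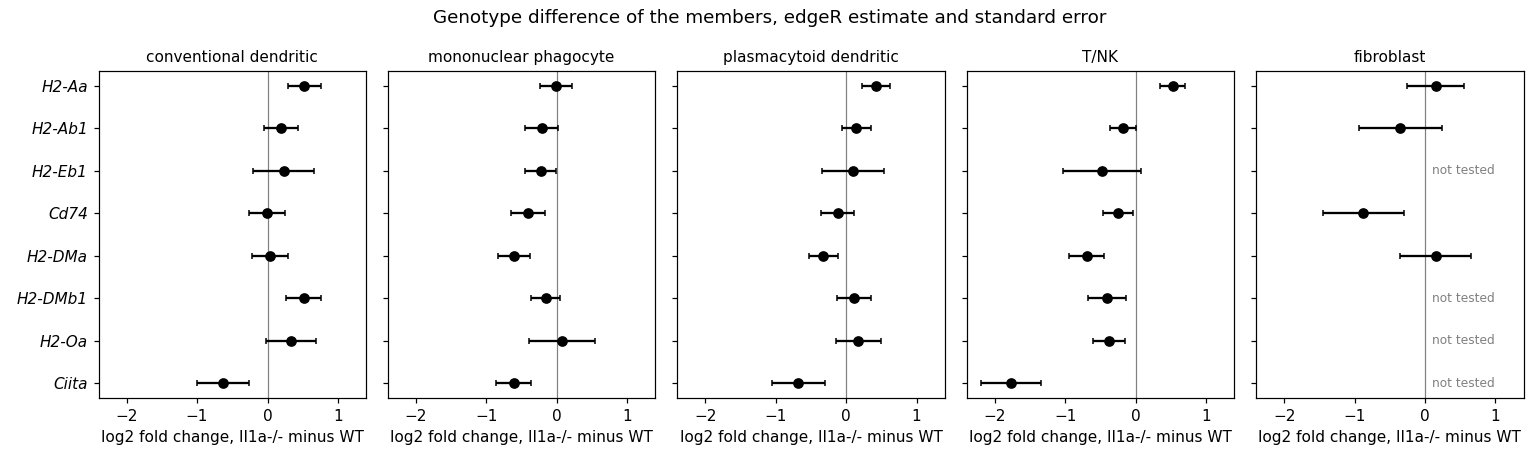
Log2 fold change of each member, Il1a-/- minus WT (horizontal axis), by cell class; points are edgeR estimates from 2 against 2 tumours and bars are standard errors. No member passed at an adjusted p of 0.05; H2-Aa sits at 0.42 to 0.53 in cDC, pDC and T/NK cells and at -0.02 in phagocytes, and Ciita is below 0 in the 4 classes where it was tested.

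Whether the genotype difference itself differed between classes was tested for the 10 pairs of classes, and 0 of 8 members passed in any pair. The smallest adjusted p was 0.357, for Ciita in T/NK cells against phagocytes (-1.12 ± 0.35). Of all 10660 genes, 0 passed for cDC against phagocytes, 0.00938% for pDC and for T/NK cells against phagocytes, 0.0657% for fibroblasts against phagocytes, 0.0281% for pDC against fibroblasts, 0.0844% for fibroblasts against T/NK cells and 0 in the other pairs.

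The share of H2-Aa among the 4 genes' UMIs differed between genotypes in the same direction in 5 classes. H2-Aa made up 19.3% and 17.8% of these UMIs in WT cDC and 24.0% and 23.6% in knockout cDC. In phagocytes it was 20.3% and 19.2% against 23.6% and 23.4%, in pDC 17.2% and 14.5% against 23.6% and 18.6%, and in T/NK cells 15.7% and 16.6% against 25.6% and 23.8%. In these classes and in fibroblasts both knockout tumours lay above both WT tumours, though class II levels were low in T/NK cells and fibroblasts. B cells did not share this, at 20.9% and 20.8% against 20.6% and 19.3%. Cd74 differed the other way, with 54.2% and 53.8% in WT against 46.1% and 49.7% in cDC and 52.8% and 52.4% against 46.8% and 48.9% in phagocytes. The shares of the 4 genes add up to the whole, so the H2-Aa and Cd74 differences are not separate results. The H2-Ab1 share overlapped between genotypes in cDC, at 26.1% and 28.0% against 29.2% and 26.4%, as did that of H2-Eb1. The H2-Ab1 share also overlapped in phagocytes, T/NK cells, B cells and fibroblasts. In pDC it was higher in both knockout tumours, at 19.4% and 18.2% against 20.1% and 20.5%. Free RNA differed in the same direction as the cells, with H2-Aa at 22.5% and 21.5% against 23.8% and 23.7%. The H2-Ab1 share of free RNA was higher too, at 27.9% and 29.5% against 35.9% and 32.1%. The classes come from the same 4 libraries, so these are not independent observations, and an exact permutation of 2 against 2 tumours cannot give p below 0.33.

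**Figure D5:**
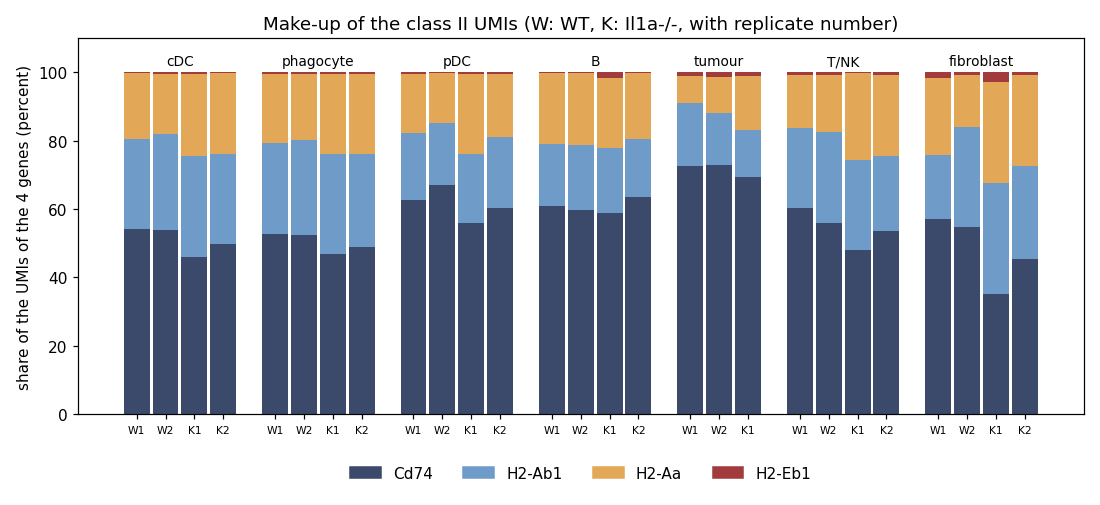
Share of the summed UMIs of Cd74, H2-Ab1, H2-Aa and H2-Eb1 that each gene holds (vertical axis, percent) by cell class and tumour, for classes with at least 50 such UMIs. The H2-Aa part is larger in the knockout bars (K) than in the WT bars (W) of cDC, phagocytes, pDC, T/NK cells and fibroblasts, for example 23.6% and 23.4% against 20.3% and 19.2% in phagocytes.

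No other listed gene passed between genotypes in phagocytes, cDC or pDC. In phagocytes 0 of 14 further class II pathway genes with enough counts passed, and the median log2 difference was -0.04 against -0.02 over all genes. Ctss, the cathepsin that trims the invariant chain, was 2602, 3536, 3024 and 3258 CPM there, with overlapping groups. The same held for Cd86, a costimulatory ligand, at 75.9, 74.3, 74.7 and 68.4 CPM. Of 5 costimulation genes, 8 genes from interferon gamma to Ciita and 11 class I presentation genes, 0 passed in phagocytes, with medians of 0.22, 0.31 and 0.37; H2-K1, a class I heavy chain, was at 0.80 (adjusted p = 0.252) and Irf1 at 1.26 (adjusted p = 0.258). B2m, the class I light chain, was at 0.51, Cd40, a costimulatory receptor, at 0.22 and Irf8, a factor of myeloid development, at -0.03 (adjusted p = 0.428, 0.791 and 0.978). In cDC and pDC 0 genes of these 4 lists passed; in pDC Irf8 was at -0.78 (adjusted p = 0.0985) and Irf1 at 0.79 (adjusted p = 0.0798). In T/NK cells 3 did, where 4.85% of all genes were called. They were 1 of 14 class II pathway genes, 1 of 8 from interferon gamma to Ciita and 1 of 11 of class I presentation, with 0 of 4 for costimulation. Ifngr1, a chain of the interferon gamma receptor, was higher by 0.76 ± 0.17 (edgeR adjusted p = 0.0430). Nlrc5, the transactivator of class I genes, was higher by 0.98 ± 0.14 (adjusted p = 0.0158). H2-Eb2 was low in all tumours, at 5.51 and 3.995 CPM in WT against 0.28 and 0.69 CPM (adjusted p = 0.0235).

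Between classes, Ctss parted from the members: it was lower in cDC than in phagocytes by 2.47 on the log2 scale (adjusted p = 5.38e-11). Rfx5, which encodes an X box factor, was low in all, at 12.0 CPM on average in phagocytes, 7.40 in cDC and 10.2 in T/NK cells, and did not pass between phagocytes and T/NK cells (adjusted p = 0.475). Over 25 sums of a class in a tumour with at least 20 cells, the 10 genes outside the members whose log2(CPM + 10) was most like the mean of H2-Aa, H2-Ab1, H2-Eb1 and Cd74 were Acer3 (Pearson r = 0.93), H2-DMb2 (0.93), Clec10a (0.92), Plekho1, Syngr2, Gm6377, Prcp, Cd36, Necap2 and 9830107B12Rik (0.88). Among the members, H2-DMa (0.99), H2-DMb1 (0.98) and Ciita (0.96) stood above these 10 genes, and H2-Oa (0.68) ranked 196th. Besides the classes above, the sums took in the neutrophils of the WT tumours (33 and 58 cells). The sums share libraries, and these values are descriptions.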

How the data were processed

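The deposited matrices hold whole-number UMI counts per feature and barcode on a combined GRCh38 and mm10 reference, empty droplets included, per the file headers and feature names. The authors made them with Cell Ranger 3.1.0, per the submitters' processing notes. Cells were barcodes with 500 or more mouse UMIs, 250 or more genes and no more than 20% of UMIs from mitochondrial genes. Pairs of libraries shared 0 to 6 cell barcodes. A cell entered a class with UMIs of at least 2 of its markers and an excess of markers over other classes. For dendritic and phagocyte classes the excess was 1, counted only over classes that were neither dendritic nor phagocyte. For the others it was 2 over any other class. Among dendritic and phagocyte classes, only the share of the list detected was compared, and it had to be 1.2 times that of the others. The median cDC of Il1a-/- replicate 1 held 3 cDC markers and 2 phagocyte markers. Of its 20 cDC, 11 did not pass the strict gate used as an alternative. Neutrophils (102 cells), mast cells or basophils (24) and endothelial cells (30) were also gated, and their levels are not described here. Cells left over entered no class. No clustering, doublet caller or test for empty droplets was run, so doublets may remain.

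UMIs were summed per class and tumour and tested with edgeR 4.0.16 in R 4.3.3 (filterByExpr, TMM, quasi-likelihood test, Benjamini-Hochberg adjustment over all genes tested, threshold 0.05), first tested on simulated data. Printed CPM are not scaled by TMM. DESeq2 1.42.0, a replicate block, other filters and gates, and each tumour left out were alternatives. Shares of cells were compared by exact permutation over tumours. Intervals (95%) cover counting error only. B and tumour epithelial cells were not tested between genotypes, as some tumours had fewer than 20 such cells.

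The members, lists and tests were chosen with earlier results of these data known. The genes named were the 8 members, list genes with an adjusted p under 0.05 in a genotype test, Ctss, Rfx5, H2-DMb2, H2-Ob, Cd86, Cd40, Irf1, Irf8, B2m and H2-K1, Il1a, and the 10 genes most like the members. Ifi30 and Marchf1, also listed, were not analysed here, and 1 other gene of this rule is not reported here. Promoter sequences and their coordinates came from RefSeq.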

Additional observations from a re-analysis of the deposited data

How the results depend on the processing

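Of 352 member values between classes, 326 kept their direction and their side of the threshold, 13 lost a call, 3 gained one and 10 changed sign. Of 389 member values between genotypes, 347 kept both, 8 gained a call, all in T/NK cells, and 34 changed sign. The causes were not tested. Knockout libraries of 6705368 and 15298532 UMIs limit the depth of the rarer classes.

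Without the low-count filter, the genotype tests called 568 genes in phagocytes, 246 in pDC, 36 in cDC, 221 in fibroblasts and 1785 in T/NK cells, and 33 for the genotype difference of cDC against phagocytes, where the reported fits called 16, 107, 0, 0, 543 and 0. DESeq2 called 106 in phagocytes, 59 in pDC, 15 in fibroblasts and 2 for that difference, and the strict gate 83 in phagocytes. Thinned to 2000 UMIs, the share of cells with a UMI of the 4 genes differed by 4.84 percentage points in cDC (-0.76 at 1000) and by -7.54 in T/NK cells (-5.91 at 1000).

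Signs changed for these log2 values. Without the filter, H2-DMb1 was -0.015 in cDC against phagocytes, H2-DMa -0.059 between genotypes in cDC, and the Ciita genotype difference 0.013 (0.018 with DESeq2). H2-Eb1 in fibroblasts against T/NK cells was 0.17 with DESeq2. Between genotypes, Cd74 was 0.61 and H2-Ab1 1.13 in fibroblasts under the strict gate, and H2-Aa in phagocytes 0.012 with at least 1000 UMIs a cell.

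With the replicate block, 71 genes were called in phagocytes, 323 in pDC, 18 in cDC, 14 in fibroblasts and 1366 in T/NK cells. H2-Oa in phagocytes was -0.0068 with the block, and Ciita, H2-Aa and H2-DMa passed in T/NK cells (adjusted p = 0.0216, 0.0312 and 0.0350). Deviations of samples with the same number correlated by -0.072 in cDC, 0.084 in pDC, 0.039 in phagocytes, 0.44 in fibroblasts and 0.24 in T/NK cells over 2 pairs. The labels do not say what a number marks and 2 pairs do not settle whether numbers pair the tumours, so they were not treated as pairs.

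Leaving out 1 tumour in turn gave 1335 (without WT replicate 2) to 2018 called genes for cDC against phagocytes (2206 with all) and 0 to 1 for their genotype difference. Between genotypes it gave 39 (without WT replicate 1) to 1201 (without Il1a-/- replicate 2) in T/NK cells, with 69 without WT replicate 2, 14 (without Il1a-/- replicate 1) to 93 (without WT replicate 1) in cDC, 0 (without WT replicate 1) to 43 (without Il1a-/- replicate 1) in phagocytes, with 2 without Il1a-/- replicate 2, and 56 (without WT replicate 2) to 198 (without Il1a-/- replicate 2) in pDC. For cDC against phagocytes the log2 ranges were -0.015 to 0.33 for Cd74, -0.027 to 0.24 for Ciita, -0.082 to 0.29 for H2-Aa, -0.036 to 0.31 for H2-Ab1, -0.34 to 0.064 for H2-DMa and -0.28 to 0.14 for H2-DMb1. Their genotype difference ranged from -0.50 to 0.16 for Ciita and from -0.13 to 1.03 for H2-Eb1, and H2-Eb1 in fibroblasts against T/NK cells from -0.25 to 0.12. Between genotypes, T/NK ranges were -0.57 to 0.0087 for Cd74, -0.39 to 0.088 for H2-Ab1 and -2.16 to 0.027 for H2-Eb1. In cDC they were -0.13 to 0.096 for Cd74, -0.19 to 0.18 for H2-DMa and -0.24 to 0.87 for H2-Eb1. In pDC they were -0.35 to 0.060 for Cd74, -0.040 to 0.29 for H2-Ab1, -0.057 to 0.21 for H2-DMb1, -0.38 to 0.96 for H2-Eb1 and -0.19 to 0.72 for H2-Oa. In phagocytes they were -0.094 to 0.056 for H2-Aa and -0.34 to 0.30 for H2-Oa, and in fibroblasts -0.56 to 0.57 for H2-Aa, -0.97 to 0.68 for H2-Ab1 and -0.17 to 0.63 for H2-DMa. The strict gate and the higher UMI minimum could not be run for cDC, which then had fewer than 20 cells in a tumour.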
